A study of Mus musculus with 23 samples.

Results

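The miR-30 family of mouse liver was followed across diet and lineage, as 9 mature miRNAs of this name: mmu-miR-30a-5p, mmu-miR-30a-3p, mmu-miR-30b-5p, mmu-miR-30c-5p, mmu-miR-30c-2-3p, mmu-miR-30d-5p, mmu-miR-30d-3p, mmu-miR-30e-5p and mmu-miR-30e-3p, given without the prefix from here on. They were chosen by name, not by their values, and are 9 of the 1218 mature miRNAs counted. Livers came from 23 F3 male C57bl/6J mice, with 1 library per mouse, and no source used here gives their age. All mice descended from breeding over 3 generations on a growing diet to which 1% of oil had been added. In the control lineage (Control fatty acid) the oil was sunflower oil rich in oleic acid, and in the omega 3 lineage (n-3PUFA) it was fish oil rich in eicosapentaenoic acid (EPA). The reference group (STD_Cont, n = 8) was of the control lineage. It ate a low-fat diet (STD) with 10% of its energy from fat for 17 weeks. The HFoleic group (HFD_Cont, n = 8), of the control lineage, and the HFepa group (HFD_O3, n = 7), of the omega 3 lineage, ate a high-fat, high-sucrose diet (HFD) with 45% of its energy from fat for 17 weeks. No group combined the omega 3 lineage with the low-fat diet.

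A miRNA gene is transcribed into an RNA that folds into a hairpin, and Dicer cuts the hairpin into a 5p and a 3p arm. The arm that is loaded into an Argonaute protein guides it to messenger RNAs that pair with the seed, bases 2 to 8 of the miRNA, and lowers their translation and stability. The miR-30 family is abundant in liver. Its member miR-30c is known to act on Mttp, the transfer protein that loads lipid onto apolipoprotein B during lipoprotein assembly, and miR-30a on Becn1, a protein that starts autophagy. No messenger RNA was measured in these libraries, so the targets have no value here.

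The mature sequences of 6 of the 9 members are shown for their seeds and for the bases by which close members differ. They were taken from RefSeq (GRCm38.p6) and are written 5′ to 3′ with the seed in capitals; miR-30b-5p, miR-30d-5p and miR-30d-3p are named only.
miR-30a-5p: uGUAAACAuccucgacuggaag
miR-30c-5p: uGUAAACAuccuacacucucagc
miR-30e-5p: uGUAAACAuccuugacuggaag
miR-30a-3p: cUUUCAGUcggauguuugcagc
miR-30e-3p: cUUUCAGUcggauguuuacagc
miR-30c-2-3p: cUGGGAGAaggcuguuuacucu

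The 5p members shown shared the seed GUAAACA, miR-30a-3p and miR-30e-3p shared UUUCAGU, and miR-30c-2-3p had UGGGAGA. Counted from the 5′ end, miR-30a-5p and miR-30e-5p differed only by C13U, and miR-30a-3p and miR-30e-3p only by G18A. The authors' alignment allowed mismatches, so the counts of such pairs may share reads and are uncertain to that extent. With miR-30a, miR-30d and miR-30e summed, the 5p arms had a log2 fold change of 0.14 ± 0.07 (SE) in HFoleic vs reference and 0.19 ± 0.08 in HFepa vs reference. The summed 3p arms had -0.07 ± 0.08 and 0.03 ± 0.08. With miR-30b-5p and miR-30c-5p summed, the values were -0.13 ± 0.09 and -0.10 ± 0.09.

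Mir30a (chr1:23272269-23272339, plus strand, GRCm38.p6) lay in no other annotated gene. Mir30c-2 (chr1:23291701-23291784, plus strand) was exonic in the long noncoding RNA gene Gm27028. Mir30c-1 (chr4:120769534-120769622, minus strand) and Mir30e (chr4:120772606-120772697, minus strand) both lay in introns of Nfyc, which encodes a subunit of the transcription factor NF-Y. Mir30c-1 and Mir30c-2 give the same miR-30c-5p, so its count pools 2 loci.

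The 9 members held 9.90% ± 0.389 (SD, n = 8) of all counts in the reference group, 10.3% ± 0.382 (n = 8) in HFoleic and 10.5% ± 0.408 (n = 7) in HFepa. miR-30a-5p alone held 6.68% of counts, averaged over the 23 libraries, and ranked 4 of 1218. miR-30d-5p (1.25%, rank 15) and miR-30e-5p (1.16%, rank 16) came next. miR-30c-5p held 0.781% (rank 22) and miR-30b-5p 0.204% (rank 37). The 3p arms were lower: miR-30a-3p had 0.0933%, miR-30e-3p 0.0410%, miR-30c-2-3p 0.0248% and miR-30d-3p 0.00802%. Mature miRNAs are of nearly the same length, but adapter ligation depends on sequence, so this is an order of counts in these libraries and not of molecules per cell. In CPM (counts scaled to a common library size with TMM factors), miR-30d-5p and miR-30e-5p had overlapping ranges in each group, and so had miR-30e-5p and miR-30c-5p in the reference. No other neighbours in this order overlapped within a group. The 1045 miRNAs with a RefSeq sequence held 87.4% of counts, and the others, miR-30d-5p and miR-30b-5p among them, entered no seed sum. Among the seeds of those 1045, GUAAACA ranked 3 with 8.62% of all counts, from miR-30a-5p, miR-30e-5p, miR-30c-5p and miR-384-5p. It stood between the seed of miR-22-3p (18.1%) and that of miR-148a-3p, miR-148b-3p and miR-152-3p (7.98%).

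**Figure D1:**
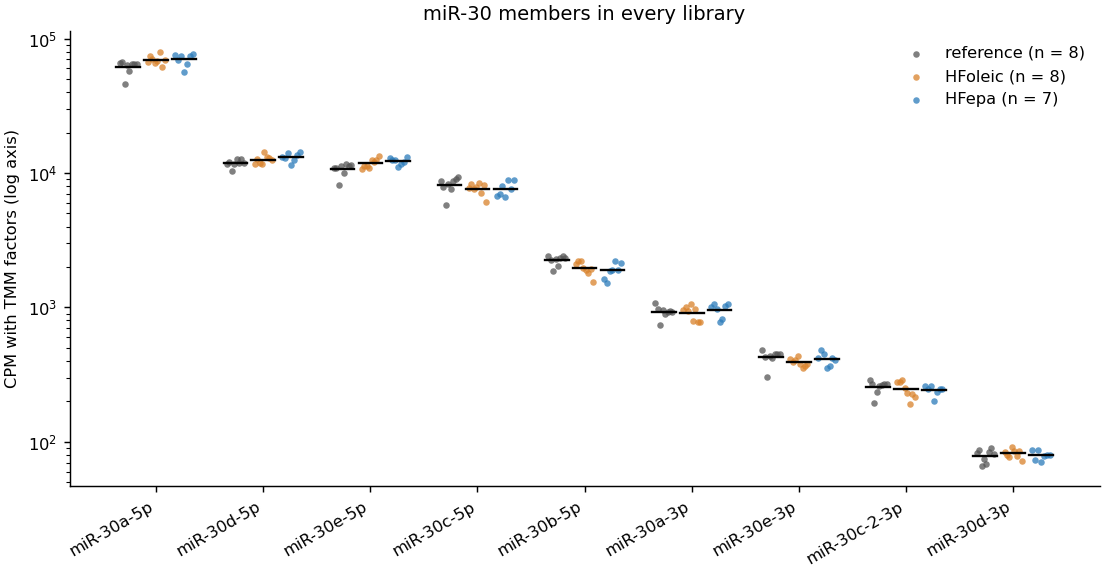
CPM with TMM factors (log axis) of the 9 miR-30 members in each of 23 libraries, by group, with a bar at the group mean. The order of the members was the same in the 3 groups, and the groups of every member overlapped. Of all 386 miRNAs tested, 0 were free of overlap in HFoleic vs reference, 18 (4.66%) in HFepa vs reference and 0 in HFepa vs HFoleic.

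Library totals lay between 3725432 and 8139344 counts, and the lowest count of any member in any library was 279 (miR-30d-3p). Markers of hepatocytes (4 of 4 listed, miR-122 and miR-192 among them) summed to 207576 CPM or more in every library but reference library 3, where they were at 113554 CPM. In that library the biliary list (5 of 5) was at 1094 CPM, against 333 CPM or less elsewhere, and the stellate cell and fibroblast list (5 of 5) at 42493 CPM, against 33199 CPM or less. Reference library 4 had 215 CPM of the muscle list (3 of 3), with 12.2 CPM or less elsewhere, and reference library 5 had 2019.5 CPM of the pancreas list (3 of 3), with 57.4 CPM or less elsewhere. Of the marker miRNAs tested, 0 of 4 for hepatocytes were called in any comparison, whereas the muscle and pancreas lists, with 1 miRNA tested each, were called lower in both comparisons with the reference group, and so was 1 of 5 for leukocytes. In HFepa vs reference 1 of 5 for bile duct cells was also called lower and 1 of 2 for endothelium higher. Library 3 also had the highest TMM factor (1.26) and was the lowest reference library for each of the 9 members in CPM, whereas it held 9.22% of its counts in the family, beside 9.38% in library 5. The part of these libraries in the results was not tested beyond leaving them out. In whole liver, fewer cells of a type and less of a miRNA per cell cannot be told apart.

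The comparison of HFoleic with the reference asked what the high-fat diet did within the control lineage. Across all 386 miRNAs tested, 48 (12.4%) were called. A call needed a log2 fold change beyond 0.25 in either direction and a Benjamini-Hochberg adjusted p below 0.05, and p-values came from the quasi-likelihood test of edgeR. Of the 9 miR-30 members, all of which were tested, 0 were called by edgeR and 0 by DESeq2, and 3 had an unadjusted p under 0.05 in edgeR, beside 108 of the 386 tested (28.0%). Lower calls (29) made up 7.51% of the miRNAs tested. Over all miRNAs the number of calls changed with the processing and the libraries: quantile scaling in limma gave 10, of which 2 were lower, library size scaling 51, of which 40 were lower, and leaving out reference libraries 3, 4 and 5 left 1. Leaving out 1 library gave 12 (without reference library 5) to 51, a term for library number gave 1, and libraries 1 to 11 alone gave 0 in edgeR (28 at an unadjusted p under 0.05). Of the members, 4 had a fold change above 0 and 5 below. The median absolute log2 fold change was 0.09 over the members and 0.17 over all miRNAs tested. Their median SE was 0.08 and 0.16, so the 2 medians do not compare the sizes of response.

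miR-30a-5p, the most abundant member, ranged in the reference from 46026 CPM (library 3) over a median of 65038 to 66858 CPM, and in HFoleic from 61596 over 68853 to 79613 CPM. Its log2 fold change was 0.17 ± 0.08 (SE, adjusted p = 0.142). Apart from library 3, the reference libraries lay at 56960 CPM or above, and the groups overlapped. miR-30e-5p ran from 8096 over 11090.4 to 11743 CPM in the reference and from 10636 over 11697 to 13397 CPM in HFoleic, with a log2 fold change of 0.14 ± 0.07 (adjusted p = 0.164) that came to -0.00077 with quantile scaling. miR-30b-5p, encoded beside miR-30d, leaned the other way. Its reference libraries ran from 1870.4 over 2309 to 2432 CPM and its HFoleic libraries from 1548 over 1941 to 2214 CPM, with a log2 fold change of -0.20 ± 0.08 (adjusted p = 0.117). The groups overlapped for both miRNAs, and in CPM 0 of the 386 tested were free of overlap between these groups. The other 6 members had log2 fold changes between -0.13 (miR-30e-3p) and 0.09 (miR-30d-5p), and none of them had an unadjusted p under 0.05. miR-30c-5p, the member known for Mttp, ran from 5753 over 8452 to 9308 CPM in the reference and from 6133 over 7802 to 8469 CPM in HFoleic, and had -0.09 ± 0.09 (adjusted p = 0.535).

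With HFepa against the reference, diet and lineage differed together. Here 60 of 386 miRNAs (15.5%) were called, 10.4% of those tested lower in HFepa, and 1 of 9 members, miR-30b-5p, was called, lower. Quantile scaling gave 24 calls, 6 of them lower, upper quartile scaling 35, 19 of them lower, and leaving out reference libraries 3, 4 and 5 gave 31, 17 of them lower. A term for library number gave 0 in edgeR (16 at an unadjusted p under 0.05). The comparison uses the same reference libraries as the first, so the 2 are not independent. The HFepa libraries of miR-30b-5p ran from 1528 over 1886 to 2227 CPM, below the reference median in all 7. The log2 fold change was -0.25 ± 0.09 (SE, adjusted p = 0.0455). The call was narrow: it was lost by DESeq2 (-0.24, adjusted p = 0.0803) and in 18 of the 23 fits that left out 1 library. These fits gave log2 fold changes between -0.30 and -0.21. Without reference libraries 3, 4 and 5 together it was kept (-0.34, adjusted p = 0.0366).

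No other 5p member was called. miR-30e-5p ran from 11141 over 12459.7 to 13217 CPM in HFepa, above the reference median in all 7 libraries, and its log2 fold change was 0.20 ± 0.07 (adjusted p = 0.0494), under the fold threshold and therefore not called. miR-30d-5p, at 11535 over 13236 to 14268 CPM in HFepa against 10306 over 11873 to 12730.4 CPM in the reference, had 0.15 ± 0.06 (adjusted p = 0.0590). miR-30a-5p had 0.18 ± 0.08 (adjusted p = 0.124), with HFepa libraries from 56512 over 74099.5 to 76718 CPM. In all 3 the groups overlapped, and in CPM 18 of the 386 tested (4.66%) were free of overlap here. miR-30c-5p had -0.09 ± 0.09 (adjusted p = 0.632), and its HFepa libraries ran from 6632 over 7590.0 to 8947 CPM. Of the 9 members 4, all of them 5p arms, had an unadjusted p under 0.05, beside 111 of the 386 tested (28.8%). The median absolute log2 fold change was 0.09 over the members and 0.19 over all miRNAs tested, with a median SE of 0.08 and 0.17.

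The 3p arms, usually the passenger strands of these hairpins, were called in no comparison. miR-30a-3p ran from 746 over 938 to 1071 CPM in the reference, from 782 over 955 to 1066 CPM in HFoleic and from 782 over 1004 to 1067 CPM in HFepa. miR-30e-3p ran from 302 over 443 to 480.4 CPM, from 354 over 385 to 432 CPM and from 354 over 419 to 478 CPM in the same order. Library 3 was the lowest reference library for both, and the groups overlapped. miR-30c-2-3p ran from 195 over 265 to 290 CPM in the reference, from 193 over 243 to 286 CPM in HFoleic and from 201 over 248 to 259 CPM in HFepa. miR-30d-3p, the scarcest member, ran from 66.3 over 81.5 to 90.6 CPM, from 72.3 over 82.2 to 91.8 CPM and from 70.9 over 79.8 to 87.5 CPM. The groups overlapped in all 4, and the log2 fold changes lay between -0.13 (miR-30e-3p, adjusted p = 0.293) and 0.05 (miR-30d-3p, adjusted p = 0.661) in HFoleic and between -0.08 (miR-30c-2-3p, adjusted p = 0.659) and 0.04 (miR-30a-3p, adjusted p = 0.796) in HFepa vs reference.

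**Figure D2:**
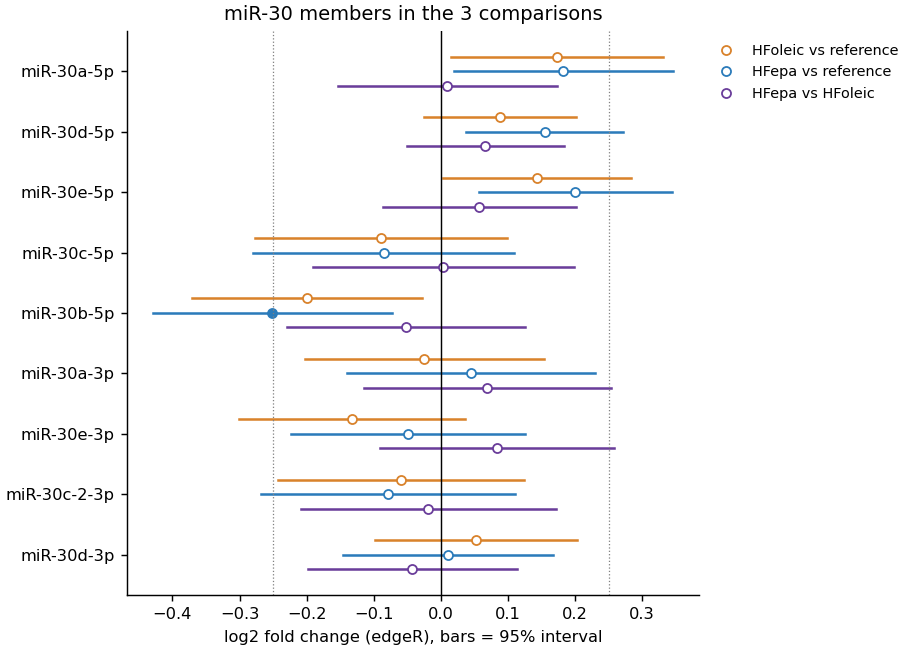
Log2 fold change from edgeR (points) with its 95% interval (bars) for each member in the 3 comparisons; a filled point marks a call and dotted lines the fold threshold of 0.25. miR-30b-5p lay on the lower side in both comparisons with the reference, and miR-30a-5p, miR-30d-5p and miR-30e-5p on the higher side, though quantile scaling put miR-30d-5p at -0.013 and miR-30e-5p at -0.00077 in HFoleic vs reference.

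Between HFepa and HFoleic, mice on the same high-fat diet but of different lineages, 0 of 386 miRNAs (0%) were called by edgeR and 0 by DESeq2, and 22 had an unadjusted p under 0.05 in edgeR, none of them a member. The members' log2 fold changes lay between -0.05 (miR-30b-5p) and 0.08 (miR-30e-3p), and each adjusted p was 0.968 or more. For miR-30a-5p the 95% interval ran from -0.15 to 0.17, and for miR-30c-5p from -0.19 to 0.20. These data do not tell a difference inside those intervals from none.

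The listed arms of miR-30 hairpins outside the 9 were scarce. miR-30b-3p, the partner arm of miR-30b-5p, had log2 fold changes of -0.32 ± 0.13 (adjusted p = 0.117) in HFoleic and -0.28 ± 0.14 (adjusted p = 0.177) in HFepa vs reference. For miR-30c-1-3p these were -0.26 ± 0.13 and -0.17 ± 0.13, and for miR-30f, read from the strand opposite Mir30e, 0.02 ± 0.12 and 0.06 ± 0.13. None of the 3 was called.

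Within a library, each member's share of the summed miR-30 count does not depend on how libraries are scaled. miR-30b-5p made up 2.33% ± 0.103 (SD, n = 8) of the miR-30 count in the reference, 1.86% ± 0.227 (n = 8) in HFoleic and 1.78% ± 0.291 (n = 7) in HFepa. The reference libraries lay between 2.23% and 2.55%, the HFoleic libraries between 1.49% and 2.09% and the HFepa libraries between 1.46% and 2.19%. Neither high-fat group overlapped with the reference. Among all 386 miRNAs tested, the count relative to the miR-30 total was free of overlap for 5 (1.3%) in HFoleic vs reference. All 5 were lower in HFoleic, miR-30b-5p being the only member. In HFepa vs reference it was free of overlap for 20 (5.18%), 18 of them lower, with miR-30b-5p and miR-30c-2-3p as members. In CPM 0 members were free of overlap in either comparison, and of all tested 0 and 18 were, the 18 being 10 lower and 8 higher. The part of the miR-30 total as denominator was not tested. miR-30c-2-3p held 0.237% to 0.287% of the miR-30 count in the reference and 0.210% to 0.236% in HFepa, so its groups were separated by a narrow margin. miR-30c-5p held 8.41% ± 0.476 in the reference, 7.28% ± 0.852 in HFoleic and 7.19% ± 0.886 in HFepa, and its groups overlapped, as did those of miR-30a-5p, which held 64.0% ± 1.06, 66.1% ± 2.03 and 65.5% ± 1.53. The share and the fold change of miR-30b-5p rest on the same counts.

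**Figure D3:**
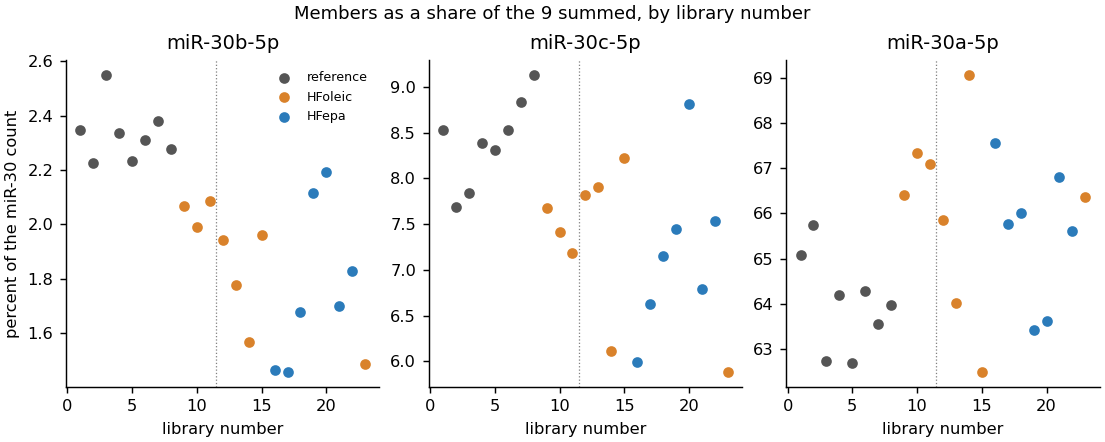
Percent of the summed count of the 9 miR-30 members held by miR-30b-5p, miR-30c-5p and miR-30a-5p, against library number, coloured by group; the dotted line divides numbers 1 to 11 from 12 to 23. The 8 reference libraries of miR-30b-5p lay at 2.23% or above and all 15 high-fat libraries below.

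The share of miR-30b-5p also moved with the library number. In HFoleic it was 1.99% to 2.09% in the 3 libraries numbered 9 to 11 and 1.49% to 1.96% in the 5 numbered 12 to 23. In CPM the HFoleic means were 2166 ± 68.8 (n = 3) and 1827 ± 166 (n = 5). With a term for numbers 1 to 11 against 12 to 23 in the fit, the difference between groups was -0.05 ± 0.10 in HFoleic and -0.01 ± 0.14 in HFepa vs reference, and the term itself was -0.25 ± 0.11 (adjusted p = 0.216). With libraries 1 to 11 alone, HFoleic vs reference gave -0.05 ± 0.09 for miR-30b-5p (adjusted p = 0.874). All reference libraries are numbered below 12 and all HFepa libraries above 11, so number and group cannot be told apart there. The share of miR-30c-2-3p was 0.252% to 0.275% in HFoleic libraries 9 to 11 and 0.167% to 0.252% in HFoleic libraries 12 to 23, and its HFepa libraries lay within the latter range.

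For miR-30a, miR-30d and miR-30e both arms were members, and the ratio of the 5p to the 3p count was compared within libraries. The 5p arm prevailed throughout, with reference medians of 66.9 5p reads per 3p read for miR-30a, 145 for miR-30d and 25.3 for miR-30e. The ratio of miR-30e ranged from 22.7 to 26.8 in the reference, from 25.3 to 35.6 in HFoleic (median 30.8) and from 26.3 to 32.5 in HFepa (median 30.9). All 8 HFoleic and all 7 HFepa libraries lay above the reference median, and 6 of each lay above the highest reference library. On the log2 scale the difference was 0.27 ± 0.08 (SE) in HFoleic (exact two-sided permutation p = 0.00311, adjusted p = 0.0140 over the 9 arm ratio tests) and 0.25 ± 0.05 in HFepa (exact permutation p = 0.000622, adjusted p = 0.00559). Without reference libraries 3, 4 and 5 these were 0.29 (adjusted exact permutation p = 0.0280) and 0.27 (0.0114). Within HFoleic the ratio of miR-30e was 25.7 to 28.8 in libraries 9 to 11. It was 25.3 in library 12 and 32.9 to 35.6 in libraries 13, 14, 15 and 23. Reference libraries are all numbered below 12 and HFepa libraries all above 11. Number and group therefore cannot be told apart in any arm ratio of HFepa vs reference.

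The ratio of miR-30a ran from 61.7 to 71.1 in the reference, from 62.1 to 88.5 in HFoleic (median 76.6) and from 64.6 to 78.6 in HFepa (median 73.1), and the groups overlapped. The differences were 0.21 ± 0.07 (exact permutation p = 0.00855, adjusted p = 0.0192) and 0.14 ± 0.04 (exact permutation p = 0.00777, adjusted p = 0.0192). Without reference libraries 3, 4 and 5 they were 0.17 and 0.11, and the adjusted exact permutation p was 0.109 for each. miR-30d had 0.03 ± 0.07 (exact permutation p = 0.669) and 0.14 ± 0.06 (exact permutation p = 0.0426, adjusted p = 0.0766). Reference library 5, which held the pancreas markers, was the highest of its group for miR-30d, and without that library the HFepa difference was 0.18 (adjusted exact permutation p = 0.0131). HFepa and HFoleic did not differ past the threshold in any of the 3 ratios, with differences of -0.06 ± 0.07, 0.11 ± 0.06 and -0.02 ± 0.09 for miR-30a, miR-30d and miR-30e.

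Shifts of this kind were common in these libraries. Of the 76 miRNAs with at least 10 counts of both arms in every library, 38.2% had an exact permutation p under 0.05 in HFoleic vs reference, 44.7% in HFepa vs reference and 6.58% in HFepa vs HFoleic, beside 2, 3 and 0 of the 4 miR-30 hairpins among them. The hairpin besides miR-30a, miR-30d and miR-30e was miR-30b, with differences of 0.15 (exact permutation p = 0.182) in HFoleic and 0.039 (exact permutation p = 0.766) in HFepa vs reference. The shift toward the 5p arm was held by 20 of the 29 in HFoleic and 24 of the 34 in HFepa vs reference, and the median difference over the 76 was 0.08 in each. Adjusted over these 76, miR-30a and miR-30e had adjusted exact permutation p-values of 0.0650 and 0.0591 in HFoleic, past the threshold in neither case, and 0.0268 and 0.00429 in HFepa. With libraries 1 to 11 alone, HFoleic vs reference gave 0.13 for miR-30a and 0.12 for miR-30e (adjusted exact permutation p = 0.0727 for each). Here the adjustment was over miR-30a, miR-30d and miR-30e only.

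**Figure D4:**
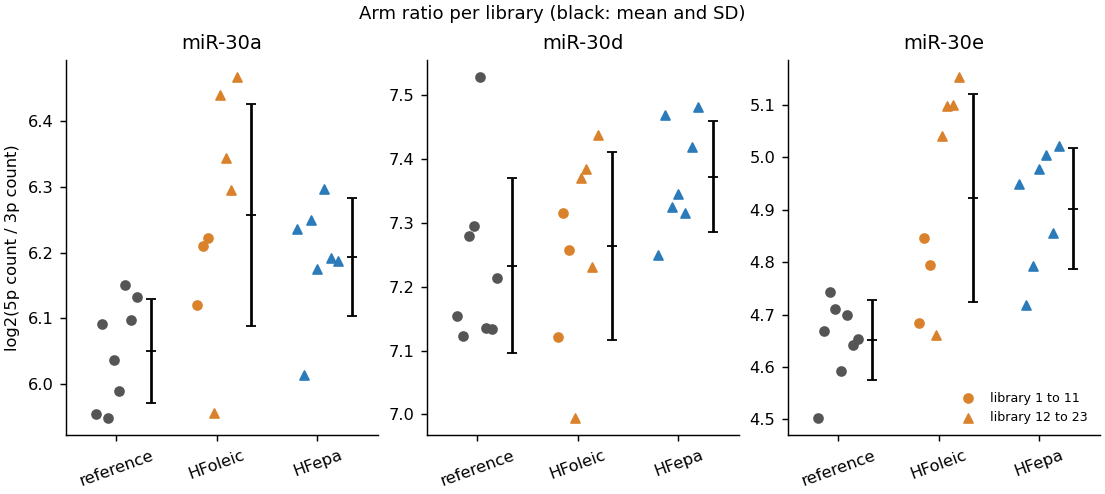
Log2 of the 5p count over the 3p count per library for miR-30a, miR-30d and miR-30e, by group; circles are libraries 1 to 11, triangles libraries 12 to 23, and black bars the mean and SD. For miR-30e, 6 of 8 HFoleic and 6 of 7 HFepa libraries lay above every reference library.

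Across the 23 libraries, pairs of members had a median Pearson r of 0.37 in log2 CPM (36 pairs, from -0.32 to 0.77), against 0.00 over all pairs of miRNAs tested. These points share library, scaling and diet group. Reference library 3 was the lowest of its group for each member, and its part in this median was not tested. miR-30b-5p went with miR-30c-5p (r = 0.76, Spearman's rho 0.80) but not with miR-30e-5p (r = -0.32, rho -0.40). With the group means removed, r was 0.80 for the first pair and 0.03 for the second. miR-30a-5p and miR-30e-5p, which differ by 1 base, had r = 0.77 and rho 0.51. Outside the family, miR-30b-5p was most like let-7d-3p (r = 0.85), miR-30e-5p most like miR-126a-5p (0.84) and miR-30c-5p most like miR-26b-3p (0.82). miR-30a-5p (0.78) and miR-30a-3p (0.70) were both most like miR-26b-5p. miR-30c-2-3p was most like miR-92a-3p (0.77), miR-30d-5p like miR-1948-3p (0.76), miR-30e-3p like miR-203-3p (0.69) and miR-30d-3p like miR-455-5p (0.68). These r were also taken without the 2 libraries farthest from each member's median. They were then 0.43 for miR-30e-3p, 0.58 for miR-30a-5p and 0.60 to 0.81 for the other members.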

How the data were processed

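Small RNA of mouse liver was sequenced with TruSeq libraries, 1 per mouse. The authors trimmed adapters with FASTX, aligned reads with Bowtie through ncPRO-seq and assigned them to miRBase mature miRNAs; bcl2fastq 2.17.1.14 and mm10 are named in the submitters' processing notes. They deposited raw read counts of 1218 mature miRNAs in 23 columns, which were used here. Another 35 columns (normalized values, group means and the authors' own comparisons) were not used. The methods name other builds beside mm10, and the table holds no coordinates. Loci came from GRCm38.p6 and sequences from RefSeq, with 6 of the 9 members and 1045 of 1218 miRNAs matched. The methods and the labels give different RNA inputs.

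Groups followed the labels. The 9 members, the marker lists and the tests were chosen with earlier results of these data known. All 23 libraries entered 1 fit of edgeR's quasi-likelihood test (edgeR 4.0.16, R 4.3.3, TMM scaling, filterByExpr), which tested 386 miRNAs, with Benjamini-Hochberg adjustment over all of them. A call needed an adjusted p below 0.05 together with a log2 fold change beyond 0.25 in either direction. It was chosen after the study's criterion of a fold change over 0.25 and a p under 0.01. The study equates that p with a false discovery rate under 0.05. Its criterion states no log scale and was applied with another test (DEGseq). An unadjusted p under 0.01 was tried as an alternative, as was adding 0.5 to both counts of an arm ratio. Standard errors came from the F statistic. CPM in the text carry TMM factors; correlations used log2 CPM with a prior count of 2. Named beside the members were the other arms of miR-30 hairpins and, for each member, the tested miRNA with the highest Pearson r. Arm ratios (5p count over 3p count, with nothing added) were compared with two-sided exact permutation tests of mean log2 ratios (SciPy 1.17.1), adjusted over 9 tests and, chosen after seeing the data, over the 76 miRNAs with at least 10 counts of each arm in every library. DESeq2 1.42.0 and limma 3.58.1 served as alternatives, with other scalings, filters, the 2 groups compared alone, a term for library number, left-out libraries and, chosen after seeing the data, reference libraries 3, 4 and 5 left out. The scripts were tested on simulated data. Totals ranged from 3725432 to 8139344 counts, and reads carried no molecular identifiers. Libraries of a group differed by more than sampling noise in all 77 pairs (chi-square per degree of freedom 28.9 or more).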

Additional observations from a re-analysis of the deposited data

Results flagged for a closer look

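In 6 of the 36 sets of values tested (9 members and 3 arm ratios in 3 groups), the lowest or highest library stood apart by Dixon's criterion, which chance alone meets in about 1 of 20. For 3 of the 6 this was reference library 3, the lowest of its group at 10306 CPM for miR-30d-5p, 8096 CPM for miR-30e-5p and 302 CPM for miR-30e-3p. That library had the least hepatocyte marker (113554 CPM) and a TMM factor of 1.26; their part in these values was not tested. Taken as shares of all counts, which do not use the TMM factor, 1 of 27 sets of member values had a library past the criterion. That set was miR-30a-3p in the reference, where the highest library stood apart, and it was not among the 6. HFepa library 19 was lowest for miR-30c-2-3p, at 201 CPM. In the log2 arm ratios, HFepa library 17 was lowest for miR-30a at 6.01 and reference library 5 was highest for miR-30d at 7.53.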

How the results depend on the processing

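No paired analysis was possible because the labels give the groups no shared replicate numbers. The number of members called in HFoleic vs reference was 1 with library size scaling only (miR-30b-5p, log2 fold change -0.27, adjusted p = 0.0358). In HFepa vs reference it was 0 with DESeq2, quantile scaling in limma, upper quartile scaling, no filter, the 2 groups alone or a term for library number. Without a fold threshold it was 2 of 9, beside 67 of the 386 tested (17.4%). Leaving out 1 library gave 0 to 1. For miR-30b-5p in HFepa vs reference, the log2 fold change was -0.17 with quantile scaling, -0.23 with upper quartile scaling, -0.26 with no filter and -0.22 with the 2 groups alone. It was kept as a call without library 3, 9, 11, 20 or 23, and lost without any other. Its adjusted p over these fits was 0.0303 to 0.159. Over all miRNAs tested, the 48 calls in HFoleic vs reference became 25 with DESeq2, 3 with no filter, 7 with the 2 groups alone, 1 with the term and 0 with libraries 1 to 11 alone (28 at an unadjusted p under 0.05), and 12 to 51 with 1 library left out (12 without reference library 5, 14 without library 15, 19 without library 13 and 19 without library 14). The 60 in HFepa vs reference became 46 with DESeq2, 21 with no filter, 39 with the 2 groups alone, 0 with the term (16 at an unadjusted p under 0.05), and 33 to 65 with 1 library left out (33 without library 22, 34 without library 16, 35 without library 18 and 37 without reference library 5). With an unadjusted p under 0.01 in place of the adjusted one, edgeR called 52 miRNAs in HFoleic vs reference (0 members), 61 in HFepa vs reference (1 member) and 5 between the high-fat groups (0 members). The number of miRNAs tested, over which p was adjusted, also changed with some settings. It was 1218 with no filter and 409 with libraries 1 to 11 alone. With the 2 groups alone it was 371 in HFoleic and 373 in HFepa vs reference. The causes were not tested.

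Members near 0 changed sign. In HFoleic vs reference, the log2 fold change of miR-30a-3p was 0.021 with upper quartile scaling, 0.064 with the library number term and 0.070 with libraries 1 to 11 alone. miR-30c-2-3p was at 0.136 with the term and 0.141 with libraries 1 to 11 alone, and quantile scaling put miR-30d-5p at -0.013 and miR-30e-5p at -0.00077. miR-30d-3p was at -0.013 with library size and -0.086 without reference libraries 3, 4 and 5. In HFepa vs reference, miR-30a-3p was at -0.099 (quantile), -0.015 (library size) and -0.040 (without libraries 3, 4 and 5), and the term put miR-30c-2-3p at 0.249 and miR-30e-3p at 0.034. miR-30d-3p was at -0.047 (library size), -0.0026 (no filter), -0.011 (a floor of 10 counts per library), -0.028 (term) and -0.116 (without libraries 3, 4 and 5). In HFepa vs HFoleic, miR-30a-5p was at -0.025 (upper quartile) and -0.011 (floor), and miR-30b-5p at 0.045 (term) and 0.055 (libraries 12 to 23). There miR-30c-5p was at -0.017 (quantile), -0.017 (upper quartile), -0.00011 (no filter) and -0.014 (floor), and miR-30c-2-3p at 0.0063 (2 groups alone), 0.113 (term) and 0.12 (libraries 12 to 23). With 1 library left out, the range was -0.058 to 0.015 for miR-30a-3p in HFoleic vs reference and -0.023 to 0.065 for miR-30d-3p in HFepa vs reference. In HFepa vs HFoleic it was -0.014 to 0.065 for miR-30a-5p, -0.036 to 0.047 for miR-30c-5p and -0.051 to 0.031 for miR-30c-2-3p.

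For the arm ratios, a difference of medians gave 0.20 (adjusted exact permutation p = 0.0653) for miR-30a in HFoleic and 0.13 (0.106) in HFepa vs reference, and 0.0049 for miR-30e in HFepa vs HFoleic. Libraries 1 to 11 alone gave 0.13 for miR-30a, 0.12 for miR-30e and -0.00095 for miR-30d. Without reference libraries 3, 4 and 5, miR-30a was 0.17 and 0.11 and miR-30d in HFepa 0.22. Adjusted over 76 miRNAs, miR-30a (0.21) and miR-30e (0.27) lost the call in HFoleic. Leaving out 1 library gave 0.12 to 0.18 for miR-30d in HFepa vs reference and -0.057 to 0.013 for miR-30e in HFepa vs HFoleic. Of 315 member fold changes under other settings 277 kept direction and side of the threshold.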
